A study of Rattus norvegicus with 20 samples.

Results

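NFAT5, the transcription factor that cells use to adapt to hypertonic surroundings, and a few of its osmoprotective target genes were followed in the supraoptic nucleus (SON) of adult and aged rats with and without dehydration (DH). The genes were chosen by symbol as Nfat5, Slc5a3, Slc6a6, Akr1b1 and Hspa4l. Of these 5, 4 had a row among the 32402 genes of the deposited tables, and the table without symbols was joined by Ensembl identifier. No row carried the symbol or the gene number of Slc5a3, which is not analysed here. Poly(A) RNA from SON punches of male Wistar Han rats was sequenced in 4 groups of 5 rats, namely euhydrated (EH) and DH adults aged 3 months, and EH and DH aged rats of 18 months. EH rats had free access to water, and DH rats went without it for 2 days by the labels and for longer by the study's methods. No group carried a transgene or a drug, only males were used, and each library is a single rat. By the study's methods whole cages were assigned at random to EH or DH. Which rats shared a cage is not given, so n counts rats and not cages. The reads counted on genes ran from 24268398 to 30348118 per library, with a median of 27691998.

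Water loss from cells in hypertonic fluid concentrates their salts, and cells answer by gathering compatible osmolytes, small organic molecules that restore volume without disturbing proteins. NFAT5, also called TonEBP, is the member of the NFAT family that works without calcineurin, and it binds tonicity-responsive enhancer elements near the genes of osmolyte carriers and enzymes. Slc5a3 encodes the sodium-coupled myo-inositol carrier, Slc6a6 the taurine transporter, Akr1b1 the aldose reductase that makes sorbitol from glucose, and Hspa4l a chaperone of the HSP110 family that is induced by osmotic and heat stress. The SON holds the vasopressin and oxytocin neurones that sense plasma osmolality, and the taurine of its glial cells restrains those neurones.

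The upstream sequences of Slc6a6 and Hspa4l are shown because these are the 2 members that passed the test in adult DH, in opposite directions. RefSeq windows of 300 bases around the gene start, of the rat build GRCr8, were at hand for 3 of the 5 genes, and none was given for Nfat5 and Akr1b1. The bases before the start were as follows, 5′ to 3′, with the match to the tonicity-responsive enhancer (TonE) consensus in capitals. The Slc6a6 stretch is chr4:125752252-125752501 and the Hspa4l stretch chr2:125668096-125668345, both on the plus strand.
Slc6a6: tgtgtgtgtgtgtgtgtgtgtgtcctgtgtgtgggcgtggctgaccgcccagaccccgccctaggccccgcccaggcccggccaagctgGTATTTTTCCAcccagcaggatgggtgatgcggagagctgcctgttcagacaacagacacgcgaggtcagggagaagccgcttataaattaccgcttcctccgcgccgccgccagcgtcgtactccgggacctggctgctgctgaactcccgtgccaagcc
Hspa4l: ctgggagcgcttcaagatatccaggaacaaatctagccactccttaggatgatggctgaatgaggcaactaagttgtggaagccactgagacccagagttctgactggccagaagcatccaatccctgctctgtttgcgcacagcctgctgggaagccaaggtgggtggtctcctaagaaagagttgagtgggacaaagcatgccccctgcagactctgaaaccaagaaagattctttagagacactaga

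The Slc6a6 stretch holds 1 match, GTATTTTTCCA, between 161 and 151 bases before the start. It reads as TonE on the opposite strand, where it begins with the core TGGAAA. Neither the core nor the consensus was found on either strand of the windows of Hspa4l and Slc5a3. Of all 33469 rat windows of this length, 22.7% hold the core and 5.98% hold the consensus, which contains the core. A match is a run of letters and was not measured as a binding site, and elements outside these windows were not looked at.

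Differences between group means were small for all 4 genes, and the rats of different groups overlapped. Values are normalized counts, the reads of a gene divided by the size factor of its library. To set the 4 groups on 1 scale, the recovered reads of all 20 libraries were also scaled together, a step chosen after the data were seen. On that scale the highest group mean exceeded the lowest by a ratio of 1.13 for Nfat5, 1.15 for Slc6a6, 1.14 for Akr1b1 and 1.09 for Hspa4l. The coefficient of variation between the 5 rats of a group was 5.06% to 6.53% for Nfat5, 4.68% to 8.12% for Slc6a6, 3.81% to 7.36% for Akr1b1 and 2.38% to 5.09% for Hspa4l. None of the 4 genes separated the rats of any pair of groups compared here without overlap, whereas 10.9% of all genes did so in adult DH, 7.05% in aged DH, 6.38% in ageing and 8.85% between the DH groups.

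**Figure D1:**
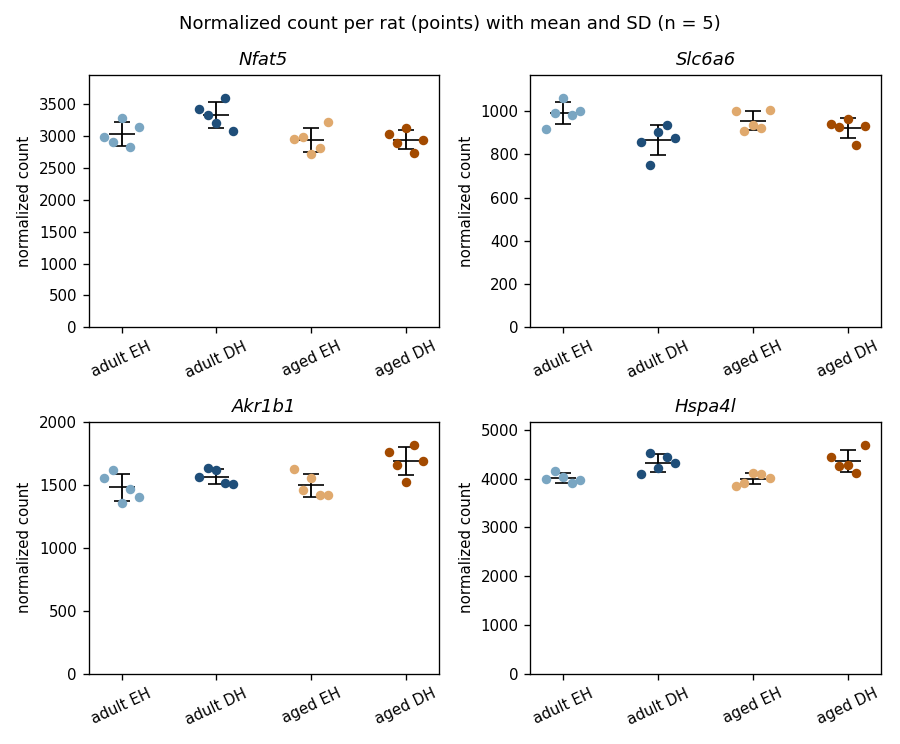
Normalized counts of Nfat5, Slc6a6, Akr1b1 and Hspa4l on the y axes, from 0, on the joint scale of 20 libraries, in adult EH, adult DH, aged EH and aged DH on the x axes. Points are rats, and the bars are the mean and SD of 5 rats. Groups overlap in every panel, with Nfat5 highest in adult DH (mean 3328), Slc6a6 lowest in adult DH (865), and Akr1b1 highest in aged DH (1692).

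Nfat5 (ENSRNOG00000011879) was somewhat higher in adult DH rats and did not pass the test. In the table of the adult comparison, the EH rats had 2939, 2854, 3231, 2775 and 3086 normalized counts. The DH rats had 3366, 3265, 3148, 3535 and 3031. In 3 of the 5 DH rats the value lay above every EH rat, and the other 2 lay within the EH range. Means were 2977 ± 183 in EH and 3269 ± 195 in DH (SD, n = 5), a log2 fold change (LFC) of 0.13 with a 95% confidence interval of 0.03 to 0.24 (limma, Benjamini-Hochberg adjusted p = 0.0867 over all genes). LFCs here are differences of log2 of the normalized count plus 1. Among the 15280 genes tested, 64.5% had a smaller absolute LFC. The gene passed without adult EH replicate 4, the highest EH rat (limma adjusted p = 0.0416), and in no other fit that left out a single rat.

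In aged rats no gap between DH and EH was seen for Nfat5. The aged EH rats had 3008, 3039, 2784, 2866 and 3281 normalized counts, and the aged DH rats 3099, 2943, 3182, 2782 and 3004. The ranges nearly coincide. Means were 2996 ± 191 and 3002 ± 153 (SD, n = 5), an LFC of 0.00 with an interval of -0.10 to 0.11 (limma adjusted p = 0.978). Aged EH and adult EH rats did not differ beyond their spread either, at 3003 ± 198 and 3103 ± 194 in the table of ageing (SD, n = 5; LFC -0.05, interval -0.16 to 0.06, limma adjusted p = 0.674).

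The response of Nfat5 to DH was 0.13 lower on the log2 scale in aged than in adult rats, but this interaction of age with DH did not pass the test (-0.13, interval -0.28 to 0.02, limma adjusted p = 0.563). In order of their joint-scale means, adult DH stood at 3328 ± 201, adult EH at 3031 ± 187, aged DH at 2944 ± 149 and aged EH at 2939 ± 192 (SD, n = 5), and the last 3 differed by less than their SDs. A direct comparison of the 2 DH groups, added after these values were seen, gave an LFC of -0.18 for aged DH against adult DH (interval -0.28 to -0.07, limma adjusted p = 0.0259), with 4 of 5 aged DH rats below every adult DH rat. In that comparison 1906 of 15324 genes (12.4%) passed, 6.49% lower. The call was lost without adult DH replicate 1 or 4 or aged DH replicate 2 or 5, where the limma adjusted p reached 0.0771 at most. Because the comparison was picked for this gap, the p cannot stand as independent support.

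Slc6a6 (ENSRNOG00000009019), the taurine transporter, fell in adult DH. The adult EH rats had 901, 975, 1042, 965 and 981 normalized counts, and the adult DH rats 844, 736, 890, 917 and 862. In 4 of the 5 DH rats the value lay below every EH rat, and DH replicate 4 lay above the lowest EH rat. Means were 973 ± 50.5 in EH and 849.6 ± 69.5 in DH (SD, n = 5), an LFC of -0.20 with an interval of -0.32 to -0.07 (limma adjusted p = 0.0424), or 12.8% lower. It was 1 of 2 members called in this comparison, in which 1934 of 15280 genes (12.7%) passed, 4.99% lower and 7.67% higher as shares of the genes tested. Higher genes made up 60.6% of the called genes, and 43.4% with all libraries scaled to the same total, where Slc6a6 kept its call. The call stands close to the threshold and held without adult EH replicate 1 or adult DH replicate 4 only, with limma adjusted p between 0.0518 and 0.0976 without any of the other 8 rats.

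In aged rats no fall of Slc6a6 was detected. The aged EH rats had 1021, 927, 959, 942 and 1022 normalized counts, and the aged DH rats 959, 944, 985, 861 and 953. A single DH rat lay below all EH rats. Means were 974 ± 44.9 and 940.3 ± 46.7 (SD, n = 5), an LFC of -0.05 with an interval of -0.16 to 0.05 (limma adjusted p = 0.613). The interaction, the aged response less the adult one, was 0.15 (interval -0.01 to 0.31, limma adjusted p = 0.552). Ageing itself gave an LFC of -0.05 (limma adjusted p = 0.597). In order of joint-scale means the groups ran from adult EH (991 ± 51.4) through aged EH (955 ± 44.7) and aged DH (922 ± 45.5) to adult DH (865 ± 70.3; SD, n = 5), and neighbours in that order differed by less than the larger of their SDs. The annotation of GRCr8 places a long noncoding gene across Slc6a6, and how strand was treated in counting is not given in the sources used here.

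Akr1b1 (ENSRNOG00000009513), aldose reductase, was higher in aged DH without passing the test. The aged EH rats had 1663, 1489, 1589, 1451 and 1449 normalized counts, and the aged DH rats 1801, 1687, 1559, 1857 and 1725. In 4 of the 5 DH rats the value lay above every EH rat, and DH replicate 3 fell within the EH range. Means were 1528 ± 94.3 and 1726 ± 114 (SD, n = 5), an LFC of 0.17 with an interval of 0.06 to 0.29 (limma adjusted p = 0.0660). Of the 15346 genes tested between aged DH and aged EH, 1119 (7.29%) passed, and none of the 4 members was among them. Akr1b1 passed when aged EH replicate 1 (limma adjusted p = 0.0392) or aged DH replicate 3 (0.0313) was left out, with DESeq2 (DESeq2 adjusted p = 0.0336, on recovered reads) and in a limma fit over all 20 libraries (0.0387).

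The adult rats showed a smaller gap in Akr1b1. The EH rats had 1532, 1594, 1332, 1442 and 1377 normalized counts and the DH rats 1536, 1606, 1591, 1486 and 1482. Only DH replicate 2 lay above all EH rats, by a small margin. The LFC was 0.08 with an interval of -0.02 to 0.19 (limma adjusted p = 0.302), and the interaction of age with DH was 0.09 (interval -0.07 to 0.25, limma adjusted p = 0.748). With ageing the LFC was 0.01 (limma adjusted p = 0.923). Joint-scale means placed aged DH (1692 ± 112) above adult DH (1568 ± 59.8), aged EH (1499 ± 91.1) and adult EH (1482 ± 109; SD, n = 5), with neighbours among the last 3 differing by less than the larger of their SDs. As for Slc6a6, long noncoding annotation of GRCr8 overlaps Akr1b1, and how strand was treated in counting is not given.

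Hspa4l (ENSRNOG00000010819), the HSP110 chaperone, rose in adult DH. The adult EH rats had 3924, 4096, 3956, 3834 and 3900.0 normalized counts, and the adult DH rats 4024, 4443, 4137, 4367 and 4244. In 4 of the 5 DH rats the value lay above every EH rat, and DH replicate 1 lay below EH replicate 2. Means were 3942 ± 96.9 and 4243 ± 169 (SD, n = 5), an LFC of 0.11 with an interval of 0.04 to 0.18 (limma adjusted p = 0.0483), or 7.60% higher. This call, too, stands at the threshold and held without adult EH replicate 2 or adult DH replicate 1 only, with limma adjusted p up to 0.110 without any other rat. It was lost in 8 of 14 fits with other settings. Among these were scaling to the same total (LFC 0.08, limma adjusted p = 0.116) and quantile normalization (LFC 0.09, limma adjusted p = 0.0960).

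The aged rats gave Hspa4l an LFC of the same sign that did not pass. The aged EH rats had 3927, 3980.0, 4213, 4177 and 4081 normalized counts, and the aged DH rats 4522, 4342, 4370.0, 4187 and 4799. Again 4 of the 5 DH rats lay above every EH rat, and replicate 5 lay within the EH range. The LFC was 0.12 with an interval of 0.04 to 0.21 (limma adjusted p = 0.0732). It passed with DESeq2 (DESeq2 adjusted p = 0.0395) and in a limma fit over all 20 libraries (0.0269), in which the adult value did not (0.0515). The interaction was 0.02 (interval -0.09 to 0.12, limma adjusted p = 0.940), and ageing gave -0.01 (limma adjusted p = 0.916). The interval of the latter ran from -0.08 to 0.06.

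**Figure D2:**
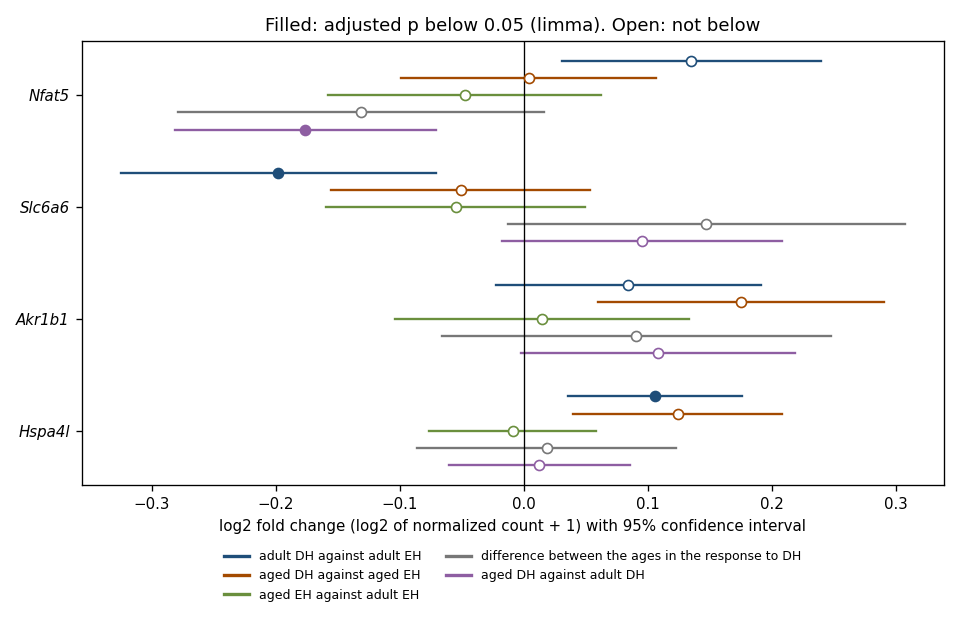
LFC on the x axis, with its 95% confidence interval as a line, for the 4 genes in 5 comparisons. Filled points passed a limma adjusted threshold of 0.05. Filled points are Slc6a6 (-0.20) and Hspa4l (0.11) in adult DH, and Nfat5 (-0.18) in aged DH against adult DH, and all other points are open.

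Between aged EH and adult EH no member passed, where 921 of 15369 genes did (5.99%). For the interaction of age with DH no member passed, and no gene at all passed among 15326 with limma, though 1522 (9.93%) had an unadjusted p under 0.05. On the recovered reads edgeR called none and DESeq2 called 56 of 13989 genes (0.4%), no member among them. A missing call does not show that the ages respond alike, and the intervals given for each gene bound the difference.

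Across the 20 rats the pairs of members had weak to moderate correlations of both signs. With each table centred on its own mean, Pearson's r was 0.48 between Akr1b1 and Hspa4l, 0.31 between Nfat5 and Hspa4l, -0.06 between Nfat5 and Slc6a6, -0.17 between Nfat5 and Akr1b1, -0.43 between Slc6a6 and Hspa4l, and -0.52 between Slc6a6 and Akr1b1. With each group centred on its mean, so that only the spread within groups remains, r was 0.47 between Nfat5 and Slc6a6, -0.51 between Nfat5 and Akr1b1, -0.41 between Slc6a6 and Akr1b1 and between -0.02 and 0.07 in the other 3 pairs. These are descriptions over libraries that share their scaling, so that pairs of genes can move together or apart through the scaling itself.

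The genes most like each member over the 20 rats, among 13098 others with a mean of at least 50, were picked by Pearson's r after centring each table. They were Lrp1 (0.80), Ccdc88a (0.79) and RGD1307100 (0.77) for Nfat5. For Slc6a6 they were Lrriq1 (0.79), the clock gene Nr1d1 (0.79) and Ankrd6 (0.78). For Akr1b1 they were Chchd3 (0.81), Fabp5 (0.79) and Atp5f1e (0.79), and for Hspa4l Ints8 (0.86), Acot7 (0.86) and the proteasome subunit gene Psmc2 (0.86). With each group centred, the closest were Ccdc88a (0.83) and Foxo1 (0.82) for Nfat5, P3h2 (0.80) for Slc6a6, Lin7b (0.74) for Akr1b1 and Megf9 (0.83) for Hspa4l. Only Ccdc88a was among the closest 3 both ways. Each gene was picked as among the highest of 13098 values over 20 rats, so r is high by selection, and no test was made. Centring on each table also leaves the difference between EH and DH in r.

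Slc5a3 lies within the span of Mrps6, a gene for a mitochondrial ribosomal protein, in GRCr8, so Mrps6 was read as its neighbour. It had 683 ± 63.1 normalized counts in adult EH and 634 ± 41.5 in adult DH (SD, n = 5; LFC -0.10, limma adjusted p = 0.333). In aged rats it had 686 ± 38.0 in EH and 679.5 ± 42.9 in DH (LFC -0.01, limma adjusted p = 0.922). The value of adult EH replicate 6 was 794, and no other adult EH rat exceeded 670.4. Whether reads of Slc5a3 entered this row was not tested.

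Other reported targets of NFAT5 were read from a list of 14 genes with a row in the tables, of whose rows 10 were tested. This list, like those below, was chosen with earlier results of these data known, so the shares called are descriptions only. In adult DH 2 of the 10 passed, both higher, against 7.67% of all genes higher, and the median LFC was 0.05 against -0.01 over all genes. In aged DH 1 of the 10 passed, higher, against 4.05% of all genes, with a median of -0.05 against 0.00.

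Sgk1, a kinase induced by glucocorticoids and by osmotic stress that regulates sodium transport, had the largest LFC of this list in adult DH. The adult EH rats had 1252, 931, 1156, 1037 and 986 normalized counts, and the adult DH rats 2781, 1927, 2293, 2495 and 1541. Every adult DH rat exceeded every EH rat, as in 10.9% of all genes tested. The LFC was 1.02 (SE 0.132, limma adjusted p = 2.24e-04). In aged rats the EH values were 1373, 1308, 1114, 1897 and 1457 and the DH values 1767, 2069, 1546, 1472 and 2324, and the groups overlapped (LFC 0.36, limma adjusted p = 0.133). The interaction, -0.66, did not pass (limma adjusted p = 0.297).

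Slc6a12, the betaine and GABA transporter BGT1, rose in adult DH from a low level. The adult EH rats had 55.8, 55.2, 73.3, 53.7 and 39.6 normalized counts, and the adult DH rats 100.6, 97.4, 71.6, 95.4 and 76.7. All DH rats but replicate 3 lay above every EH rat. The LFC was 0.67 (SE 0.162, limma adjusted p = 0.0154). In aged rats the EH values were 48.1, 60.97, 36.5, 41.6 and 74.2 and the DH values 59.2, 44.8, 35.6, 51.9 and 36.3 (LFC -0.18, limma adjusted p = 0.703). The interaction was -0.85 and did not pass (limma adjusted p = 0.297), while aged DH against adult DH, on the joint scale, gave -1.01 (limma adjusted p = 0.00189) with no overlap, as in 8.85% of genes in that comparison. Slc6a13, the related transporter GAT2, rose in adult DH (LFC 0.40, limma adjusted p = 0.0331), had an LFC of 0.03 in aged DH (0.947), and was lower in aged DH than in adult DH (-0.83, limma adjusted p = 0.00121). Between aged EH and adult EH its LFC was -0.46 and did not pass (limma adjusted p = 0.0827). Its interaction of age with DH did not pass either.

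Markers of meningeal cells and fibroblasts moved with age beside these carriers. Of 6 such genes in 7 rows, 4 rows were tested. All 4 passed as lower in aged DH than in adult DH (100%, against 6.49% of all genes), with a median LFC of -1.06. Their summed normalized counts were 16491 to 20638 in adult EH, 16990 to 20691 in adult DH, 6012 to 11262 in aged EH and 6357 to 10679 in aged DH, and in each group 1 or 2 of the 7 rows, those of Ogn, stood at 0. Between adult DH and adult EH none of the 4 passed, where 12.7% of all genes did (median LFC 0.12). The part of these markers in the gaps of Slc6a12 and Slc6a13 between the ages was not tested. In a punch of tissue, fewer cells of a type and less RNA per cell cannot be told apart.

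Slc38a2, the amino acid transporter SNAT2 that is induced by hypertonicity, rose in aged DH. The aged EH rats had 4161, 4003, 3762, 4424 and 3876 normalized counts, and the aged DH rats 5158, 5144, 4150.3, 5184 and 4945. DH replicate 3 stood apart from the other DH rats and within the EH range, and the other 4 lay above every EH rat. The LFC was 0.28 (SE 0.0612, limma adjusted p = 0.0129). In adult rats the values were 4762, 3709, 3977, 4378 and 4275 in EH and 5110, 5109, 4822, 4235 and 5136 in DH, an LFC of 0.21 that just missed the threshold (limma adjusted p = 0.0525). The interaction was 0.07 (limma adjusted p = 0.870). Of this list, Nos2, Tnf, Aqp2, Slc14a2 and 1 of 2 rows for Hspa1a had means too low to test.

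A list of other osmolyte and amino acid carriers and of subunits of the volume-regulated anion channel gave more calls. It too was chosen with earlier results of these data known, so its shares are not independent support. In adult DH 6 of 13 tested genes rose (46.2%, against 7.67% of all genes), with a median LFC of 0.13. In aged DH 2 of 13 rose (15.4%, against 4.05%), with a median of 0.11. The adult genes were Slc7a5, Slc3a2, Slc6a13, Slc36a1, Slc2a13 and Lrrc8d, and the aged genes were Slc7a5 and Slc3a2. Those 2 form a carrier of large neutral amino acids, and no other gene of this list passed in aged DH. Without 1 rat at a time, the adult calls of Slc6a13, Slc36a1 and Lrrc8d held in 3, 4 and 3 of 10 fits. Their limma adjusted p ran up to 0.0736, 0.0594 and 0.0917. The other 3 adult calls held in all 10.

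Slc7a5 and Slc3a2 encode the light and heavy chains of a carrier of large neutral amino acids, and both rose at both ages. For Slc7a5 the adult EH rats had 2313, 2178, 2238, 2346 and 2291 normalized counts, and the adult DH rats 2853, 2843, 2898, 2926 and 2830.2. The aged EH rats had 2306, 2165, 2550, 2315 and 2312, and the aged DH rats 2827, 2700.4, 3139, 3160 and 2599. At neither age did the groups overlap, and the LFCs were 0.34 (limma adjusted p = 6.87e-06) and 0.31 (0.00596). Slc3a2 likewise did not overlap at either age, with LFCs of 0.27 (limma adjusted p = 5.64e-04) and 0.21 (0.0137). Non-overlap was found in 10.9% of all genes in adults and 7.05% in aged rats. The interactions were -0.03 for Slc7a5 and -0.06 for Slc3a2 (limma adjusted p = 0.920 and 0.822). Slc2a13, the proton-coupled myo-inositol carrier, rose in adult DH (LFC 0.20, limma adjusted p = 0.00261) and had an LFC of 0.04 in aged DH (0.696). Slc5a11, a sodium-coupled myo-inositol carrier, was lower in aged EH than in adult EH (LFC -0.33, limma adjusted p = 0.0449), a call that held in 1 of 10 fits without a rat (limma adjusted p up to 0.0955). Oligodendrocyte markers were lower beside it, with 6 of 8 passing (75%, against 5.99% of all genes in either direction) and a median LFC of -0.37. Their summed normalized counts were 243298 to 294926 in aged EH against 275010 to 400234 in adult EH, none of the 8 at 0. With DH the LFC of Slc5a11 was -0.19 in adult and 0.29 in aged rats (limma adjusted p = 0.261 and 0.0691), beside marker medians of -0.15 and 0.15. The part of these markers in the values of Slc5a11 was not tested.

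**Figure D3:**
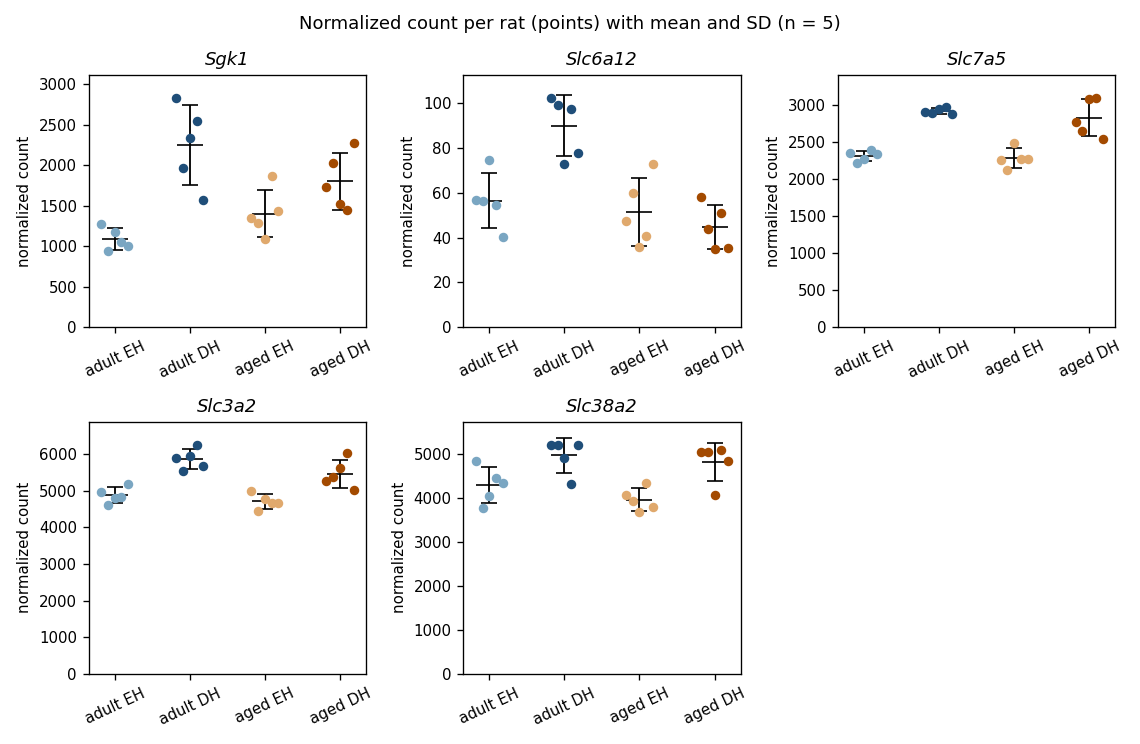
Normalized counts of Sgk1, Slc6a12, Slc7a5, Slc3a2 and Slc38a2 on the y axes, from 0, on the joint scale of 20 libraries, in adult EH, adult DH, aged EH and aged DH on the x axes. Points are rats, and the bars are the mean and SD of 5 rats. Slc7a5 and Slc3a2 rise with DH at both ages, whereas Slc6a12 stands higher in adult DH (mean 90.0) than in the other groups (44.7 to 56.5).

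No enzyme that makes or breaks down osmolytes passed with DH. Median LFCs of the 13 tested genes in adult and aged DH were -0.01 and 0.05, with no call at either age, where 12.7% and 7.29% of all genes passed. The largest absolute LFCs were those of Chdh, choline dehydrogenase of betaine synthesis, in adults (-0.51, limma adjusted p = 0.0826) and of Gdpd5, which breaks down glycerophosphocholine, in aged rats (0.18, limma adjusted p = 0.0973). Sord, the sorbitol dehydrogenase that follows aldose reductase, had LFCs of -0.12 and -0.08 with DH in adult and aged rats (limma adjusted p = 0.147 and 0.372). Between aged DH and adult DH, 2 of the 13 passed (15.4%, against 12.4% of all genes). Sord was higher in aged DH (LFC 0.20, limma adjusted p = 0.0159, in 10 of 10 fits without a rat), and Isyna1, the myo-inositol synthase, was lower (-0.20, limma adjusted p = 0.0383, in 4 of 10 fits, with limma adjusted p up to 0.120).

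None of the 4 paralogs Nfatc1 to Nfatc4 passed in either DH comparison or in ageing, where 12.7%, 7.29% and 5.99% of all genes did. Their largest absolute LFCs were -0.13 for Nfatc2 in adult DH (limma adjusted p = 0.579), -0.06 for Nfatc3 in aged DH (0.644) and -0.36 for Nfatc4 in ageing (0.190). Nfatc4 was lower in aged DH than in adult DH (LFC -0.53, limma adjusted p = 0.0187), in 9 of 10 fits without a rat.

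Of 19 tested rows for kinases and other proteins placed upstream of or beside NFAT5, 2 passed in adult DH, 1 in each direction (10.5%, against 12.7% of all genes). In aged DH 2 passed, both higher (10.5%, against 4.05% of all genes higher). Map2k6, a kinase that activates p38, fell in adult DH from 411 ± 16.2 to 348 ± 22.5 normalized counts (SD, n = 5; LFC -0.24, limma adjusted p = 0.0170) and had a like LFC of -0.23 in aged DH that did not pass (0.108). Ccm2, a scaffold of osmotic p38 signalling, rose in adult DH (LFC 0.22, limma adjusted p = 0.0136). Ptpn11, the phosphatase SHP2, rose in aged DH (LFC 0.16, limma adjusted p = 0.0127) and was also higher in aged EH than in adult EH (0.22, limma adjusted p = 0.00277). Hsp90aa1, a chaperone, rose in aged DH (0.15, limma adjusted p = 0.0346), and passed in 3 of 10 fits without a rat (limma adjusted p up to 0.0898). Between aged DH and adult DH, 3 of the 19 passed (15.8%, against 12.4% of all genes). Ptpn11 was higher in aged DH (LFC 0.30, limma adjusted p = 2.72e-05), and Map2k6 (-0.22, 0.0382) and the RNA helicase gene Ddx5 (-0.10, 0.0474) were lower. The latter 2 passed in 3 and 2 of 10 fits without a rat, with limma adjusted p up to 0.109 and 0.120. Between aged EH and adult EH the LFC of Map2k6 was -0.24 and did not pass (limma adjusted p = 0.0752).

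Relatives of Hspa4l and Akr1b1 were read as well, from a list also chosen with earlier results of these data known. Of 5 tested genes, 2 passed in adult DH (40%, against 7.67% of all genes higher), namely Hspa4, the closest HSP110 relative of Hspa4l (LFC 0.16, limma adjusted p = 0.00162), and Hyou1, the HSP110 chaperone of the endoplasmic reticulum (0.14, limma adjusted p = 0.00986). Hsph1, the heat-inducible HSP110, had LFCs of 0.02 and -0.02 with DH in adult and aged rats (limma adjusted p = 0.853 and 0.854). In aged DH 1 of 5 passed (20%, against 4.05% of all genes higher), Akr1a1, an aldehyde reductase related to aldose reductase (0.17, limma adjusted p = 0.00798). In adult DH the gene had an LFC of 0.05 (limma adjusted p = 0.382), and the interaction, 0.12, did not pass (0.368). Akr1a1 was also higher in aged DH than in adult DH (0.16, limma adjusted p = 0.00255), as the 1 call among the 5 there (20%, against 12.4% of all genes). Akr1b8, a further aldo-keto reductase, had the largest absolute LFCs of this list with DH, 0.18 in adult and 0.39 in aged rats, and passed at neither age (limma adjusted p = 0.668 and 0.268). Between aged DH and adult DH its LFC was 0.19 (limma adjusted p = 0.598).

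Other genes had the largest absolute LFC of their list without passing. In ageing these were Sgk1 (0.34, limma adjusted p = 0.105), Map2k6 (-0.24, 0.0752), Chdh (-0.44, 0.141), Slc6a13 (-0.46, 0.0827) and Hspa4 (0.06, 0.341). For the interaction they included Nfatc4 (-0.17, limma adjusted p = 0.834), Hsp90aa1 (0.16, 0.401), Chdh (0.53, 0.466), Slc5a11 (0.48, 0.272) and Akr1b8 (0.21, 0.864).

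**Figure D4:**
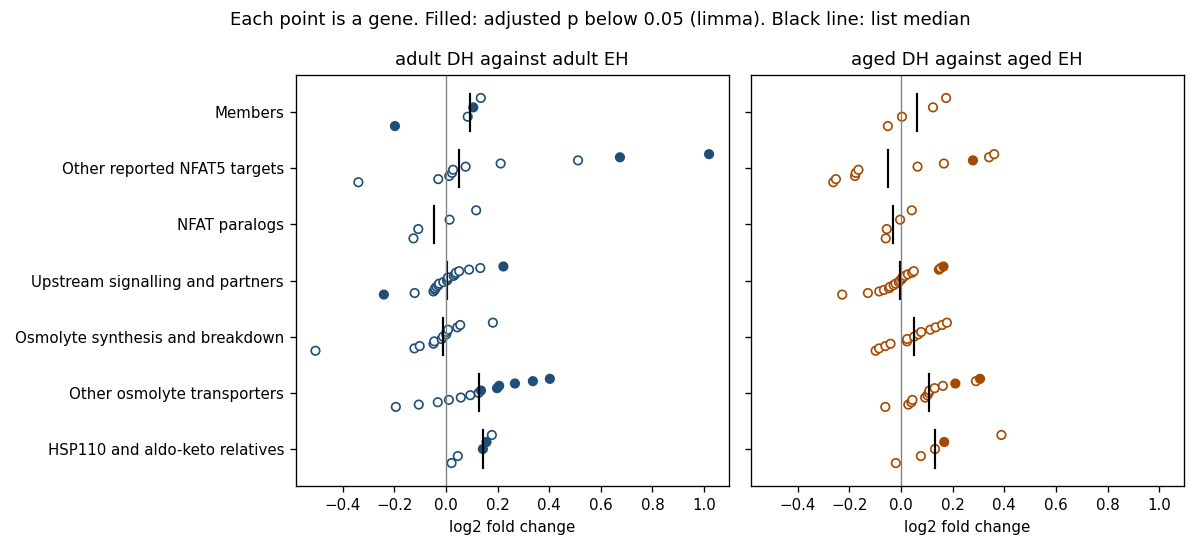
LFC of each tested gene on the x axis, by list on the y axis, for adult DH against adult EH on the left and aged DH against aged EH on the right. Filled points passed a limma adjusted threshold of 0.05 and the black lines are list medians. The carriers have the most filled points in adults, 6 of 13, and osmolyte enzymes and NFAT paralogs have none.

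Markers of the tissue were present in all groups. The summed normalized counts of 5 genes of magnocellular neurones were 206955 to 297072 in adult EH and 298018 to 396657 in adult DH, and 268506 to 382542 in aged EH and 317784 to 527005 in aged DH. None of those 5 genes was at 0. In adult DH, 2 of the 5 rose, Avp (LFC 0.48, limma adjusted p = 0.0221) and Pdyn (1.04), and Pdyn rose in aged DH (0.58, limma adjusted p = 0.0262). Over all genes, 12.7% passed in adult DH (7.67% higher, 4.99% lower) and 7.29% in aged DH (4.05% higher). In ageing 5.99% passed, and between aged DH and adult DH 12.4% (6.49% lower). A single call among 8 genes is 12.5%. Of 8 astrocyte genes none passed in adult DH and 1, Aldoc, in aged DH. Of 8 oligodendrocyte genes 1 was lower in adult DH and 2, Mobp and Mal, were higher in aged DH. Of 5 genes of cortical and amygdalar glutamatergic neurones, 3 were lower in aged DH (60%, against 7.29% of all genes in either direction), with a median LFC of -1.86. Their summed levels were 849 to 1598 there against 1665 to 4045 in aged EH, and none passed in adult DH. Between aged DH and adult DH, 4 of 8 microglia genes were higher, with a median LFC of 0.29, and 3 of 8 astrocyte and 3 of 8 oligodendrocyte genes were lower, with medians of -0.08 and -0.07. In ageing 3 of 8 microglia genes were higher (median 0.24) and 2 of 8 astrocyte genes lower (median -0.04). Of the 5 magnocellular genes, 2, Pdyn and Cartpt, were higher in ageing (median 0.28). Between aged DH and adult DH 1 of them, Cartpt, was higher (median 0.23). The part of these markers in the values of Nfat5, Slc6a6, Akr1b1, Hspa4l and Slc38a2 was not tested.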

How the data were processed

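Poly(A) RNA of SON punches from 20 male rats, 5 in each of 4 groups, was sequenced. The authors used STAR to align reads to the rat assembly Rn6, featureCounts to count reads on genes, and DESeq2 size factors to scale the counts within each of 3 tables (adult DH, aged DH, ageing). The signal deposited by the authors in the 30 library columns is this normalized count. Their log2 fold changes, standard errors, Wald scores, p-values and group means, also deposited by the authors, were not used. Versions of STAR and featureCounts were not found in these sources. The members and lists were chosen with earlier results of these data known.

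Log2 of the normalized count plus 1 was tested with limma 3.58.1 (R 4.3.3), two-sided, with a variance trend, for genes with a mean of at least 10, with Benjamini-Hochberg adjustment over all genes and a threshold of 0.05. The interaction of age with DH was fitted over 20 rats, each from the DH table of its age. In every library 100% of the values came out as whole reads, to within 0.1 read, when divided by 1 step, and the reads so recovered were identical in tables that share a library, including libraries whose step is too near 1 to be told from rounding. These reads went into edgeR 4.0.16 and DESeq2 1.42.0 and into a joint scaling over 20 libraries. The joint scaling and the comparison of the DH groups were added after seeing the data. Named genes are the 5 members, list genes past the threshold and the largest absolute LFC of a list. Genes named outside this rule for comparison were chosen after their values were seen. The scripts' tests were checked on simulated data. Sequences are from RefSeq, and figures were drawn with matplotlib. No Rn6 coordinates are printed, since the reference tables are of GRCr8.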

Additional observations from a re-analysis of the deposited data

Results flagged for a closer look

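Of 60 sets of 5 rats checked, 3 held a rat apart from the others, where the gap to the nearest rat is divided by the range of the group and compared with a critical value of 0.71. Chance alone gives about 1 such set in 20. Mrps6 in adult EH replicate 6 stood at 794 normalized counts against 670.4 for the next rat (gap over range 0.823) in the table of the adult comparison, and at 828 against 699 (0.816) in the table of ageing, which is the same library. Slc38a2 in aged DH replicate 3 stood at 4150.3 against 4945 for the next rat (0.769). No set of Nfat5, Slc6a6, Akr1b1 or Hspa4l held such a rat.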

How the results depend on the processing

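Members called in adult DH (2 as reported) numbered 0 without a filter on low values and without a variance trend, and 1 with scaling to the same total, quantile normalization, RNA integrity as a covariate, the replicate block, and the 2 fits over 20 libraries. In aged DH (0 as reported) they numbered 1 with the replicate block and 2 with DESeq2 and with both fits over 20 libraries. List genes called in adult DH (12) fell to 7 with the replicate block. In aged DH (6) they fell to 3 with the replicate block and to 2 without a variance trend. In ageing (2) they fell to 1 without a filter, without a variance trend and with RNA integrity as a covariate, and in aged DH against adult DH (9) to 5 with RNA integrity as a covariate.

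Without single rats, members called ran from 0 to 1 in adult DH, aged DH and aged DH against adult DH. List genes ran from 9 to 14 in adult DH, 5 to 7 in aged DH, 1 to 4 in ageing and 5 to 9 in aged DH against adult DH.

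Signs changed only for LFCs near 0 that never passed. For Nfat5 in aged DH the LFC was -0.0117 with scaling to the same total, -0.0080 with quantile normalization and -0.0435 with the replicate block, and -0.0221 to 0.0371 without single rats. For Akr1b1 in ageing it was -0.0152 with scaling to the same total and -0.0161 to 0.0477 without single rats. For Hspa4l in aged DH against adult DH it was -0.0098 with scaling to the same total, -5.0e-04 with RNA integrity as a covariate and -0.0152 to 0.0331 without single rats. For Hspa4l without single rats it was -0.0204 to 0.0046 in ageing and -0.0099 to 0.0393 for the interaction of age with DH. The cause of these changes was not tested.

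Over all genes, calls in adult DH (1934) fell to 1005 with RNA integrity as a covariate and 987 with the replicate block. In aged DH (1119) they fell to 671 without a variance trend, 653 with the replicate block, 679 without aged EH replicate 5 and 678 without aged DH replicate 5. In ageing (921) they fell to 516 without a variance trend, 599 without aged EH replicate 4 and 594 without adult EH replicate 5. For the interaction (0) they numbered 56 with DESeq2, 1 without a variance trend and with the replicate block, and 5 at most without a single rat. Scaling to the same total moved the share of higher genes from 45.0% to 28.8% in ageing and from 47.8% to 33.5% in aged DH against adult DH.

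No clear pairing of the rats by replicate number was seen. Deviations of same-numbered rats had correlations between -0.0825 and 0.162, and some rats but not all correlated best with their own number. So few pairs cannot exclude a pairing. With the replicate block, Nfat5 passed in adult DH (LFC 0.16, limma adjusted p = 0.0285), Slc6a6 (0.0796) and Hspa4l (0.0992) did not, and Akr1b1 passed in aged DH (0.0428). The calls of Slc6a6, Hspa4l, Akr1b1 and Nfat5 lie near the threshold, so that most depend on the choice of fit. Their LFCs kept their signs where called. The lowest value of a member in any library was 736 normalized counts, and the effect of depth was not tested.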
